A study of Mus musculus with 6 samples.

Results

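Mitosis and G2/M genes, 41 of the 30774 gene rows on the arrays, were described in P12 testes of ScAtrxKO and wild-type (WT) mice. They were taken by name from a list of well-known genes of G2 phase and mitosis, and all 41 names had a row, with symbols in capitals in the files (KIF2C for Kif2c, CDCA8 for Cdca8, BUB1B for Bub1b) and Cdk1 listed under its older name, CDC2A. The rule uses names alone, though the list was drawn up with earlier results of these data known. In the 3 ScAtrxKO samples, Atrx had been deleted by crossing Atrx flox/flox mice with mice carrying AMH-Cre, a Cre recombinase under the anti-Mullerian hormone promoter that is active in Sertoli cells, the somatic cells that nurse the germ cells. The 3 WT samples were labelled wild type, with no more said of their alleles. All 6 samples were whole testes of male C57BL/6 mice aged 12 days, each hybridized to an Illumina MouseWG-6 v2.0 BeadChip. The deletion was therefore limited to Sertoli cells, while the RNA came from every cell type of the testis. The labels number the replicates without saying that they came from separate animals, so the p-values measure only the spread between these samples.

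A cell enters mitosis when cyclin B bound to Cdk1 becomes active, and Aurora and Polo kinases then guide centrosomes, spindle and kinetochores until the anaphase-promoting complex, switched on by Cdc20, ends the division. Transcripts of this machinery accumulate in G2 and are scarce in cells that have left the cycle, which makes them a common readout of proliferation. In the testis at this age spermatogonia divide by mitosis, the first spermatocytes are in meiotic prophase, and Sertoli cells are ending their proliferation. In RNA from a whole organ, fewer dividing cells and less transcript per dividing cell cannot be told apart.

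Many promoters of these genes carry the CHR (cell cycle genes homology region), an element bound by the DREAM and MuvB complexes, downstream of or close to CCAAT boxes bound by NF-Y. The letters TTTGAA (CHR) and CCAAT, on either strand, were searched in RefSeq promoter windows of assembly GRCm38.p6, each covering 250 bases before and 50 bases after an annotated start. Windows were found for 34 of the 41 genes (36 windows). Cdk1, the kinase that drives entry into mitosis, and Cdc20, the activator of the anaphase-promoting complex, are shown because their whole set of matches lies upstream of the start. The 250 upstream bases are printed with both motifs in capitals, for Cdk1 at chr10:69352913-69353162 and for Cdc20 at chr4:118437344-118437593, both on the minus strand.
Cdk1: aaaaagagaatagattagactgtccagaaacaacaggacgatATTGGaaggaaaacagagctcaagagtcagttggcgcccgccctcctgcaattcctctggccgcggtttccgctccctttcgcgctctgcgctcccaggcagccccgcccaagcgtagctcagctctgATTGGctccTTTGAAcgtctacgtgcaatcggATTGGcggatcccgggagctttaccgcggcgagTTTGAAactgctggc
Cdc20: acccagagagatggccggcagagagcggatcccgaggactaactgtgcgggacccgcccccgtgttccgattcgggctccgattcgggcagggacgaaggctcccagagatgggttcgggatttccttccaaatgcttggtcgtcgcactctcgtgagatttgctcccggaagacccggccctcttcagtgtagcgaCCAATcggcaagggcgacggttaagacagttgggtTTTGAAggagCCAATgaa

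For 3 members with some of the larger differences between the genotypes, the CHR is shown with its neighbouring bases and the CHR in capitals. The windows are those of Bub1b at chr2:118598231-118598260 (plus strand), Aurka at chr2:172370521-172370550 (minus strand; the annotated start lies 316 bases inside the gene) and Kif23 at chr9:61946780-61946809 (minus strand).
Bub1b: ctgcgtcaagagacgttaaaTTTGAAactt
Aurka: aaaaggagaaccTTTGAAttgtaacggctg
Kif23: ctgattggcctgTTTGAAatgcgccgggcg

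In all, 27 of the 36 windows (75%) held a CHR, against 17.9% of the 32851 windows in the table. CCAAT was present in 28 of the 36 (77.8%), against 37.4% of all windows, and both motifs in 23 (63.9%), against 6.95%. A variant of the CHR, TTTAAA, was searched too and was present in 9 of the 36 (25%), against 13.2%. It is not counted as a CHR here. In 2 windows matches overlapped, a CHR with a CCAAT in that of Cdca8 and CCAAT matches on opposite strands in that of Ube2c. The annotated start lay more than 100 bases inside the gene for 8 windows, among them that of Kif2c, which starts 3852 bases inside the gene and is not shown as its promoter. No window was found for Cdc25c, Incenp, Ccna2, Kif20a, Tpx2, Aurkb or Foxm1. A match describes letters in a window and is not evidence of binding.

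**Figure D1:**
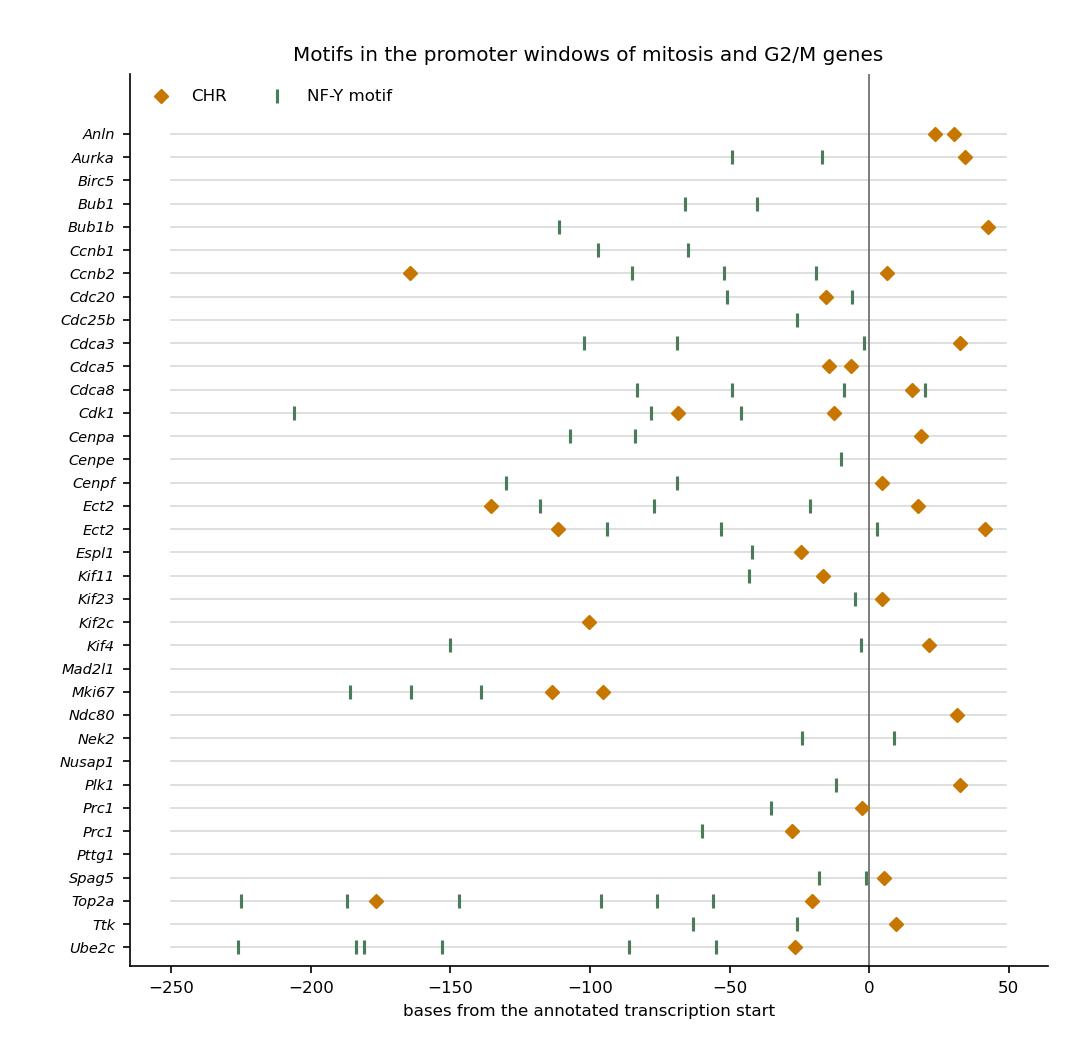
Position of each CHR (diamonds) and each NF-Y motif, the CCAAT box (bars), in the promoter windows of 34 mitosis and G2/M genes, in bases from the annotated transcription start (vertical line). Ect2 and Prc1 have more than 1 window, and most CHR matches lie close to the start.

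The arrays were of similar quality but not of equal brightness. Mean intensity was 350, 469 and 458 on the 3 ScAtrxKO arrays and 368, 376 and 381 on the 3 WT arrays, before the normalization that the authors applied. Between 10493 and 10917 rows were detected per ScAtrxKO array and between 10624 and 10803 per WT array (detection p below 0.01). The Atrx row was detected on 0 of 6 arrays and does not check the genotypes. Rows detected on at least 1 array were tested, 13026 in all, and fold changes below are differences of normalized log2 values, ScAtrxKO minus WT, which understate the change of dim genes. Of the Sertoli cell markers 12 of 15 were tested, with Sox9, Amh, Gata4, Cldn11, Inha and Dhh detected and Gdnf, Kitl and Vim undetected.

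Of the 41 mitosis and G2/M genes, 27 were detected on at least 1 array and 20 on all 6. At an adjusted p below 0.05 (limma, Benjamini-Hochberg over the 13026 rows), 1 of the 27 was lower in ScAtrxKO testes, 0 were higher and 26 did not pass. Among all rows tested, 5.50% were lower and 7.47% higher. None of the 27 reached the 1.5-fold limit as well, against 1.30% of all rows. The member that fell was Kif2c, which encodes MCAK, a kinesin that depolymerizes microtubules at centromeres. An unadjusted p below 0.05 was found for 5 of the 27 (18.5%), against 28.8% of all rows, so calls were no more frequent among these genes than over the whole array.

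The differences were small and most pointed down. The log2 fold change was below 0 for 22 of the 27 (81.5%), against 54.8% of all rows, and its median was -0.08, against -0.01 over all rows. The values ran between -0.28 for Cdca8 and 0.15 for Kif23, with quartiles of -0.11 and -0.02. On the deposited normalized scale all 27 of the 95% confidence intervals lay inside the 1.5-fold limits (±0.58 on the log2 scale), as they did for 96.4% of all rows. The lowest bound was -0.49, for Cdc20, and the highest 0.27, for Kif23. This did not hold on every scale, since the interval passed a limit for 4 of the 27 with neqc (lowest bound -0.79, for Cdc20), 7 with log2 quantile normalization (lowest -0.72, for Cenpf, and highest 0.92, for Cdc25b) and 9 with log2 median scaling. These genes share cells and arrays and are not replicates of each other, so no test of the list was made.

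**Figure D2:**
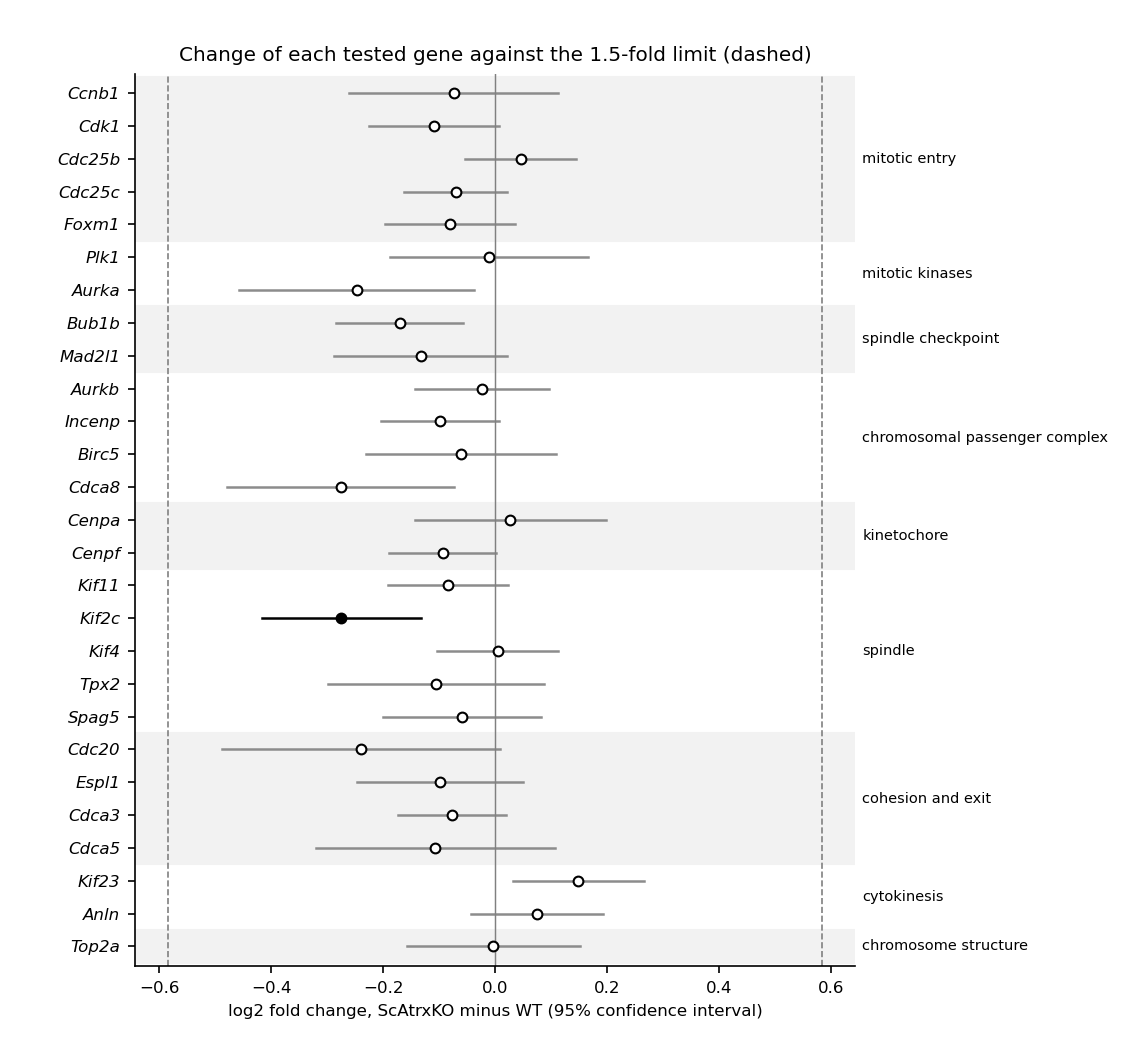
Log2 fold change, ScAtrxKO minus WT, of the 27 tested mitosis and G2/M genes with its 95% confidence interval, grouped by role, with the 1.5-fold limits as dashed lines. On this scale, that of the deposited values, all intervals lie inside the limits, and Kif2c (filled point) alone passed the adjusted p of 0.05.

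Arrays of the genotypes did not overlap for 10 of the 27 genes (37.0%), against 33.8% of all rows. ScAtrxKO lay below WT on every array for 9 of them, namely Cdc25c, Bub1b, Mad2l1, Incenp, Cdca8, Cenpf, Kif11, Kif2c and Cdca3 (33.3%, against 17.6% of all rows). Kif23 was the 1 gene with every ScAtrxKO array above every WT array (3.70%, against 16.2%). On the intensity scale before normalization, 25 of the 27 overlapped, only Cenpf separating below and Cdc25b above. The separation of the other genes was therefore seen on the normalized scale alone. No share over all rows was computed on the intensity scale. ScAtrxKO replicates 2 and 3 were the brightest arrays on it, with mean intensities of 469 and 458, against 368 to 381 in WT. ScAtrxKO replicate 1 was the dimmest, at 350. How far these differences in brightness made the groups overlap was not tested.

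Within ScAtrxKO the arrays ranked in much the same way from gene to gene. Replicate 3 gave the lowest of the 3 values for 17 of the 27 genes and replicate 1 the highest for 20. The median deviation from the WT mean was -0.04, -0.05 and -0.12 on ScAtrxKO replicates 1, 2 and 3, against 0.02, 0.01 and -0.03 on WT replicates 1, 2 and 3. All 3 ScAtrxKO medians lay below all 3 WT medians, although ScAtrxKO replicate 1 and WT replicate 3 were only 0.01 apart when rounded. WT replicate 3 was the lowest WT array for 15 of the 27.

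**Figure D3:**
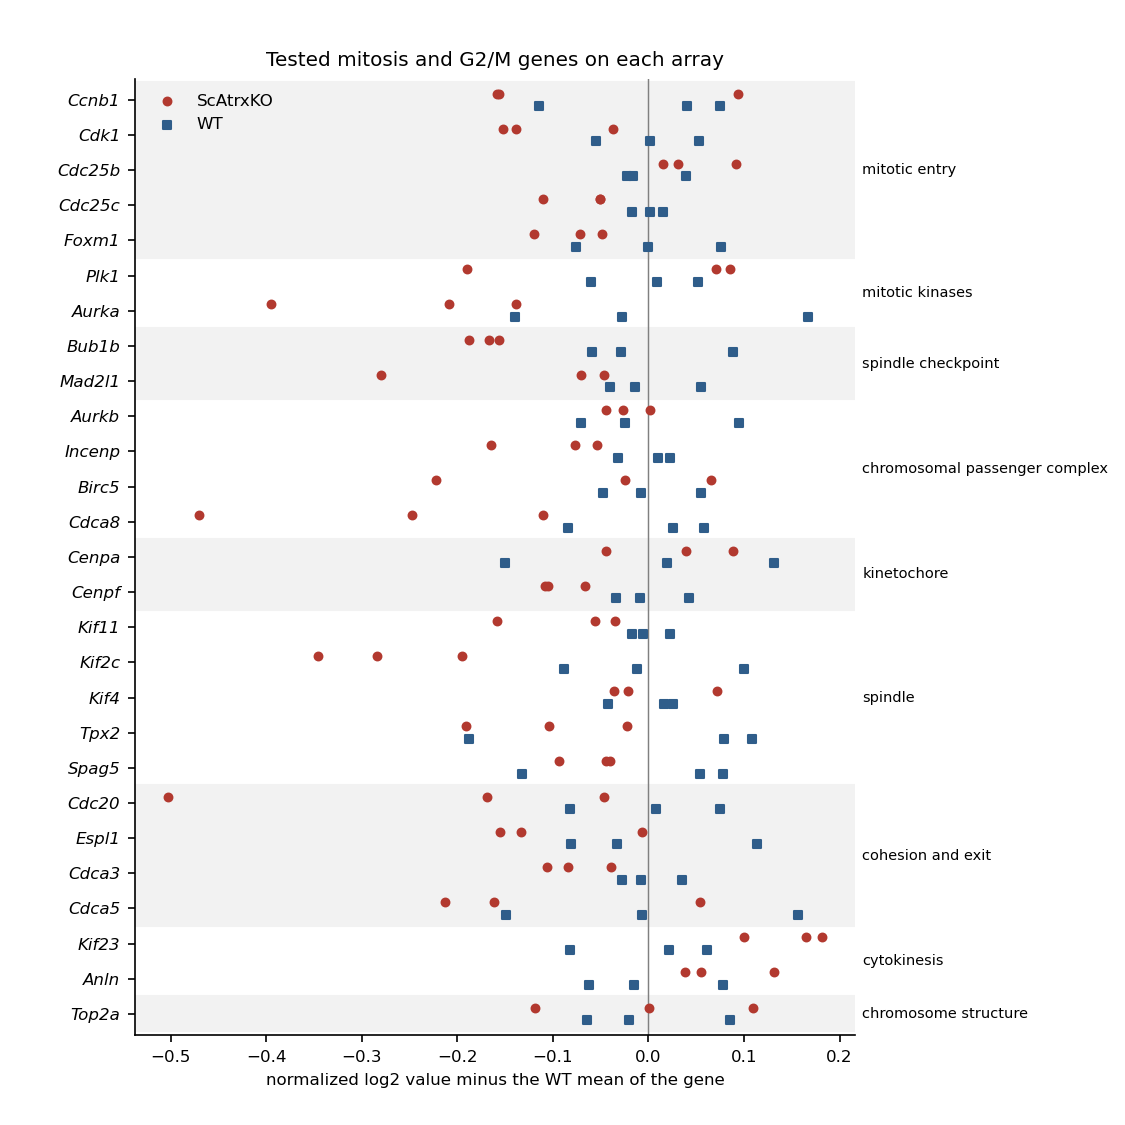
Normalized log2 value of each tested mitosis and G2/M gene on each array minus the WT mean of that gene, for 3 ScAtrxKO (circles) and 3 WT (squares) arrays, grouped by role. The ScAtrxKO points of Kif2c, Cdca8 and Bub1b lie left of all their WT points, those of Kif23 right of them, and most genes overlap.

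Genes that start mitosis had a median log2 fold change of -0.07, near the -0.08 of all 27 tested members. Of 7 members, 5 were tested and 0 passed. Cdk1 measured 8.95, 8.84 and 8.83 in ScAtrxKO, against 8.98, 9.04 and 8.93 in WT, a log2 fold change of -0.11 (SE 0.05, limma adjusted p = 0.199). The highest ScAtrxKO value exceeded the lowest WT value, and Cdk1 was detected on 1 ScAtrxKO and 0 WT arrays despite intensities of 351 to 416. Ccnb1, the cyclin B that activates Cdk1, had intensities of 356, 480 and 618 in ScAtrxKO and 477, 473 and 401 in WT, and its normalized log2 difference of -0.07 was less than its standard error of 0.08. Foxm1, a transcription factor for G2/M genes, differed by -0.08 (adjusted p = 0.344 in limma). The phosphatases that activate Cdk1 differed by 0.05 for Cdc25b and -0.07 for Cdc25c. Ccnb2 and Ccna2, encoding cyclins B2 and A2, were not detected on any array.

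Among the mitotic kinases, Aurka, which matures centrosomes and builds the spindle poles, had one of the larger differences. It measured 9.45, 9.38 and 9.20 in ScAtrxKO, against 9.76, 9.57 and 9.45 in WT. The fold change was -0.25 on the log2 scale (SE 0.09, 95% interval -0.46 to -0.04), and the adjusted p of 0.115 from limma missed the threshold. The groups met at 9.45. Plk1, the Polo kinase that acts at centrosomes, kinetochores and the midzone, was at 10.13, 10.15 and 9.87 in ScAtrxKO and 10.07, 10.00 and 10.11 in WT, a difference of -0.01 with an interval of -0.19 to 0.17. Nek2, a centrosome kinase, was not detected.

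Both tested genes of the spindle checkpoint, which holds anaphase until kinetochores are attached, lay below WT on every array after normalization. The same held for 17.6% of all rows. Neither gene passed the adjusted p, and both overlapped before normalization. Bub1b, encoding the checkpoint kinase BubR1, was tightly grouped in ScAtrxKO at 9.56, 9.53 and 9.55, against 9.81, 9.66 and 9.69 in WT. Its fold change of -0.17 (SE 0.05) had an adjusted p of 0.0583 in limma. Mad2l1, encoding the Cdc20 inhibitor Mad2, measured 10.13, 10.11 and 9.90 in ScAtrxKO, against 10.23, 10.16 and 10.14 in WT, a difference of -0.13 with an adjusted p of 0.242 in limma. The gap between the groups was narrow for Mad2l1, with 10.13 the highest in ScAtrxKO and 10.14 the lowest in WT. The checkpoint kinases Bub1 and Ttk were not detected.

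All 4 subunits of the chromosomal passenger complex, which corrects faulty attachments and then controls cytokinesis, were tested and 0 passed, with all 4 fold changes below 0. Cdca8, encoding borealin, had the largest difference of any member on the deposited scale, by under 0.01 over Kif2c, and not with neqc (Kif2c), log2 quantile normalization or median scaling (Cenpf). It measured 10.51, 10.37 and 10.15 in ScAtrxKO, against 10.64, 10.68 and 10.53 in WT, with every ScAtrxKO array below every WT array. The fold change was -0.28 (SE 0.09, 95% interval -0.48 to -0.07), and with the wider spread in ScAtrxKO the adjusted p was 0.0788 in limma. It lay between 0.0895 and 0.217 with 1 of the other 5 arrays left out and was 0.0373 without ScAtrxKO replicate 1, the array closest to WT. Without ScAtrxKO replicate 3 the fold change was -0.18. Its partners differed less, Incenp, the scaffold, by -0.10, Birc5, encoding survivin, by -0.06 and Aurkb, the kinase, by -0.02.

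At the kinetochore, Cenpa, the histone variant that marks centromeres, differed by 0.03 (SE 0.07), with 12.51, 12.46 and 12.38 in ScAtrxKO and 12.55, 12.27 and 12.44 in WT. The groups overlapped fully. Cenpf, a kinetochore and nuclear matrix protein of G2 cells, measured 8.02, 7.98 and 7.98 in ScAtrxKO, against 8.08, 8.13 and 8.05 in WT, a difference of -0.09 (adjusted p = 0.185 in limma). It was the only member below WT on every array both before and after normalization. Its intensities were 65.0, 78.6 and 78.9 in ScAtrxKO, against 83.4, 98.3 and 79.2 in WT. The motor Cenpe and the microtubule-binding Ndc80 did not reach the detection limit.

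The spindle genes held the member that passed. Kif2c measured 9.95, 9.80 and 9.86 in ScAtrxKO, against 10.13, 10.06 and 10.25 in WT, with a gap between the groups. The means were 9.87 ± 0.08 in ScAtrxKO and 10.15 ± 0.09 in WT (SD, n = 3 each), a log2 fold change of -0.27 (SE 0.06, 95% interval -0.42 to -0.13) or 0.827-fold of WT, with an adjusted p of 0.0255 in limma. Intensities before normalization were 930, 1081 and 1128 in ScAtrxKO and 1114, 1070 and 1251 in WT, which overlapped. The call was lost when ScAtrxKO replicate 2 (adjusted p = 0.0868), ScAtrxKO replicate 3 (0.0626), WT replicate 1 (0.0621) or WT replicate 3 (0.0574) was left out of the limma fit, and in all of these fits the direction stayed below 0. It was also lost with neqc (0.0527), median scaling (0.0958) or quantile normalization of plain log2 intensities (0.108). The other spindle genes did not pass. Kif11, the bipolar motor Eg5, differed by -0.08, Tpx2, the activator of Aurora A, by -0.11 and Spag5, a spindle-associated protein, by -0.06. The chromokinesin Kif4 measured 8.96, 8.86 and 8.87 in ScAtrxKO, against 8.91, 8.92 and 8.85 in WT, a difference of 0.00 with an interval of -0.10 to 0.11. Nusap1, a microtubule-bundling protein, was not detected.

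**Figure D4:**
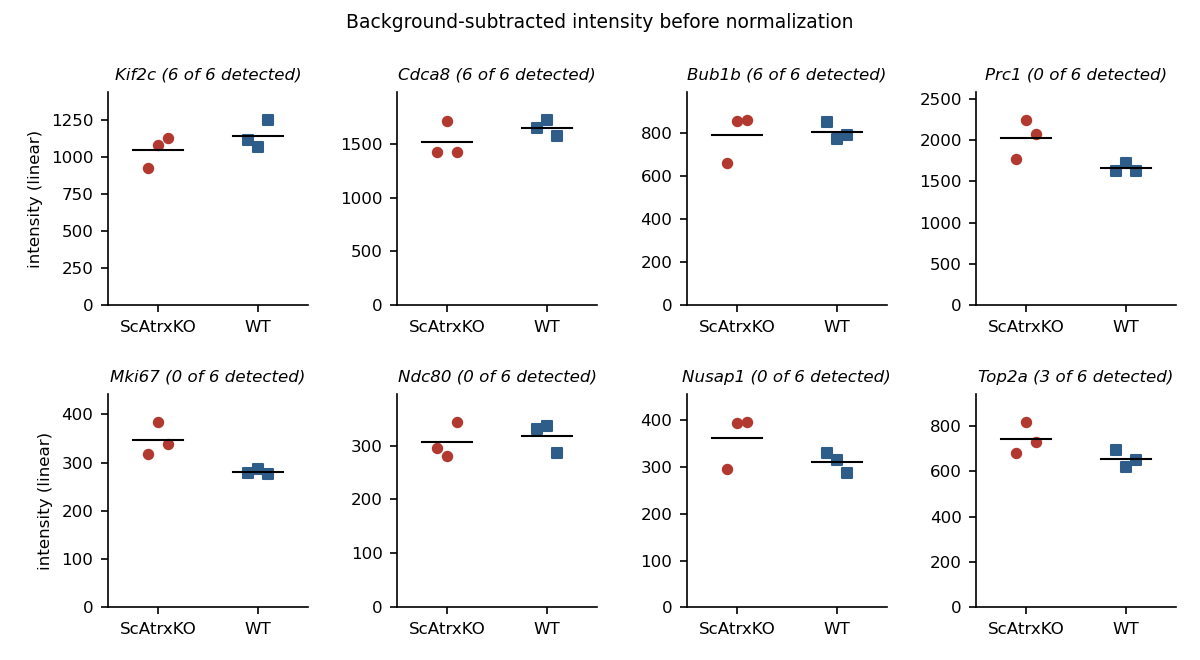
Background-subtracted intensity before normalization of 8 mitosis and G2/M genes on the 3 ScAtrxKO (circles) and 3 WT (squares) arrays, with group means as lines and the number of arrays on which the row was detected in each title. Kif2c, Cdca8 and Bub1b overlap on this scale, while Prc1 and Mki67 lie higher on every ScAtrxKO array.

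For sister chromatid cohesion and exit from mitosis, 4 of 6 members were tested, 0 passed, and all 4 fold changes were below 0. Cdc20 measured 10.39, 10.27 and 9.94 in ScAtrxKO, against 10.51, 10.45 and 10.36 in WT. Its difference of -0.24 (SE 0.11) had the largest standard error of the members, ScAtrxKO replicate 3 standing lowest, and an adjusted p of 0.190 in limma. Without that array the difference was -0.11. Cdca5, encoding sororin, which protects cohesion, differed by -0.11, and Espl1, encoding separase, which cuts it, by -0.10. Cdca3, which marks proteins for destruction at mitotic entry, differed by -0.08 with 9.84, 9.77 and 9.79 in ScAtrxKO and 9.91, 9.87 and 9.85 in WT. Ube2c, an ubiquitin-conjugating enzyme of the anaphase-promoting complex, and Pttg1, encoding the separase inhibitor securin, were not detected.

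Of 5 cytokinesis genes, 2 were tested and 0 passed, and both fold changes were above 0. Cdc25b, Cenpa and Kif4, of other role groups, were also above 0. Kif23, a centralspindlin motor of the midzone, measured 10.49, 10.58 and 10.56 in ScAtrxKO, against 10.46, 10.42 and 10.31 in WT, every ScAtrxKO array above every WT array. Its fold change of 0.15 (SE 0.05, 95% interval 0.03 to 0.27) had an adjusted p of 0.0948 in limma. Anln, encoding the actin-bundling protein anillin, measured 9.47, 9.39 and 9.38 in ScAtrxKO and 9.32, 9.42 and 9.28 in WT, a difference of 0.07 that did not pass. Both genes had small differences in the direction opposite to most members. Kif20a, Prc1 and Ect2 were not detected. Top2a, the topoisomerase that untangles chromosomes, measured 9.60, 9.49 and 9.37 in ScAtrxKO, against 9.58, 9.43 and 9.47 in WT, a difference of 0.00 with an interval of -0.16 to 0.15.

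Detection was uneven for rows of moderate intensity. The sources used here do not say how the detection p of a gene row combines its probes, so "not detected" means only that this p was not below 0.01 on the arrays concerned. Espl1 was detected on 1 ScAtrxKO and 0 WT arrays, Anln on 2 ScAtrxKO and 0 WT arrays, Cdc25c on 0 ScAtrxKO and 1 WT array, and Top2a on 0 ScAtrxKO and 3 WT arrays. Their fold changes are differences of measured values, with a genotype in which the row was not called detected, and no bound is given for them. The intensities of Top2a were 682, 817 and 732 in ScAtrxKO and 695, 620 and 650 in WT. Its detection differed between the genotypes while its level did not separate them.

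Of the 14 members that were not detected on any array, 4 nevertheless had intensities above 200 on every array. Prc1, a midzone crosslinker, measured 1765, 2240 and 2072 in ScAtrxKO, against 1627, 1719 and 1625 in WT. Mki67, the proliferation marker Ki-67, measured 319, 384 and 339 in ScAtrxKO, against 278, 288 and 277 in WT. Both were higher on every ScAtrxKO array on this scale, and both overlapped after normalization. On this scale ScAtrxKO replicates 2 and 3 were the brightest arrays and ScAtrxKO replicate 1 the dimmest (mean intensity 350). Ndc80 and Nusap1 overlapped on either scale. The other 10 (Ccnb2, Ccna2, Nek2, Bub1, Ttk, Cenpe, Ube2c, Pttg1, Kif20a and Ect2) measured between -20.4 and 83.0. The brightest of them was Ect2, at 56.5 to 83.0. Cdc25b was detected on 5 arrays with lower intensities, 28.3 to 50.2. The lowest detection p of the 14 was 0.0134, that of Ect2. The rows of these 10 genes do not show whether they were expressed. With no detection filter the lowest adjusted p among the 14 was 0.326 in limma.

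Fold changes were then set beside the motifs. The 18 tested members with a CHR in a window had a median log2 fold change of -0.09, with 14 of 18 below 0 and values between -0.28 and 0.15. Kif2c, whose window lies inside the gene, is counted among them, and without it the median of the other 17 was -0.08. Those 17 still include Aurka, Cdca3 and Spag5, whose annotated starts lay 316, 646 and 121 bases inside the gene. The 4 without a CHR had a median of -0.07, with 3 of 4 below 0. Of these 4, Ccnb1 and Birc5 held the variant TTTAAA in their windows, and the start of Cdc25b lay inside the gene. With 4 genes in the smaller set no comparison was made.

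Other genes of the mitotic machinery were in the same range. Of 95 further rows listed for mitosis, 63 were tested, 3 were lower in ScAtrxKO testes past the same adjusted p (4.76%, against 5.50% of all rows) and 0 were higher. The median fold change was -0.06 on the log2 scale and 51 of the 63 were below 0 (81.0%, against 54.8% of all rows). Ncapd3, a condensin II subunit, measured 10.23, 10.23 and 10.12 in ScAtrxKO, against 10.46, 10.41 and 10.42 in WT (-0.23, adjusted p = 0.0157 in limma). Dsn1, a subunit of the outer kinetochore, fell by 0.25 (adjusted p = 0.0287 in limma). Mad2l2, which acts in translesion synthesis and as an inhibitor of the anaphase-promoting complex, fell by 0.24 (adjusted p = 0.0327 in limma). None reached 1.5-fold. Ncapd3 passed in 13 of 17 alternative settings, Dsn1 in 9 and Mad2l2 in 7, with calls lost on leaving out 1 of 6 arrays for Ncapd3, 4 for Dsn1 and 5 for Mad2l2.

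Genes of DNA replication, the preceding phase of the cycle, were lower in 3 of 20 tested rows and higher in 0. The share lower was 15%, against 5.50% of all rows. The median was -0.10, and 17 of 20 were below 0 (85%, against 54.8% of all rows). Rrm1, the large subunit of ribonucleotide reductase, measured 9.59, 9.29 and 9.62 in ScAtrxKO, against 10.05, 9.94 and 10.11 in WT. Its change of -0.54 (SE 0.09, adjusted p = 0.00903 in limma) was larger than that of any mitosis and G2/M gene, and it separated before normalization too. Mcm7, of the replicative helicase, fell by 0.22 (adjusted p = 0.0306 in limma), and Cdt1, which loads it, fell by 0.21 (adjusted p = 0.0491 in limma). Of 17 alternative settings Rrm1 passed in 15, Mcm7 in 9 and Cdt1 in 5, losses that included leaving out any of 5 arrays for Mcm7 and for Cdt1.

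Markers of several cell types of the testis moved between the genotypes on the same arrays. For comparison, 5.50% of all rows were lower and 7.47% higher. Of the spermatogonial markers 6 of 15 tested were lower and 0 higher (median -0.17), with summed intensities before normalization of 9856 to 13081 in ScAtrxKO and 13011 to 13627 in WT, Ddx4 undetected. Of the meiotic markers 4 of 15 were lower and 1 higher (median -0.23), with sums of 13589 to 17754 in ScAtrxKO and 14625 to 17882 in WT. Dmc1, Spo11, Sycp3, Hormad1 and Tex12 were not detected on any array. Of the macrophage markers 12 of 13 were higher and 0 lower (median 0.38), with sums of 7308 to 11758 in ScAtrxKO and 3167 to 4160 in WT. Higher rows also numbered 5 of 6 for endothelial cells, 3 of 6 for Leydig cells, 1 of 3 for myoid cells and 1 of 5 for erythroid cells, with 0 lower in each. Sertoli cell markers were higher in 2 of 12 and lower in 0, with a median of 0.06. The part of these markers in the differences of the mitosis and G2/M genes was not tested.

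**Figure D5:**
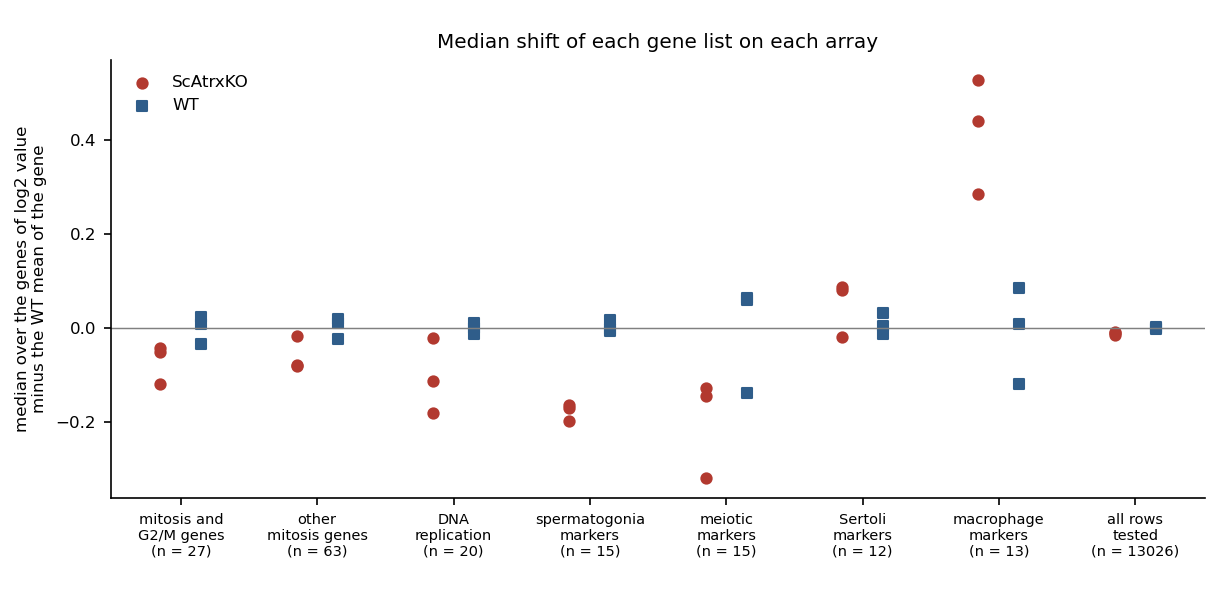
Median over the tested genes of each list of the normalized log2 value minus the WT mean of the gene, on each of 3 ScAtrxKO (circles) and 3 WT (squares) arrays. The medians of the mitosis and G2/M genes (-0.04, -0.05 and -0.12 in ScAtrxKO) lie nearer to 0 than those of the spermatogonial markers and opposite in sign to those of the macrophage markers.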

How the data were processed

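RNA of 3 ScAtrxKO and 3 WT testes was hybridized to Illumina MouseWG-6 v2.0 arrays. The authors subtracted background and averaged probes to gene rows in GenomeStudio, which gave the deposited intensity and a detection p-value per row. Variance stabilization and then quantile normalization, both in lumi, gave the log2 values that they deposited. The authors' own sheets of fold changes with p-values and of GO terms were not used.

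Rows with a detection p below 0.01 on at least 1 array (13026 of 30774) were fitted on the deposited log2 values with limma 3.58.1 in R 4.3.3 (lmFit and eBayes, genotype only), and p-values were adjusted by Benjamini-Hochberg over all of them. A call needed an adjusted p below 0.05, and calls that also reached 1.5-fold were counted apart. The fit was tested on simulated data. The other gene lists and the roles, like the members, were chosen with earlier results of these data known. All members were named, and of the other mitosis and DNA replication lists those past the adjusted p. Promoter windows came from RefSeq. No pair of arrays held the same values, with at most 0.138% identical intensities. The number of arrays limits the precision. Alternatives covered background correction, normalization, the detection filter, the variance model, weighting of arrays, a block for the replicate number and leaving out each array.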

Additional observations from a re-analysis of the deposited data

How the results depend on the processing

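Over 455 pairs of a member and 1 of 17 alternative settings, 429 kept direction and side of the threshold, 8 lost a call, 4 gained 1, 14 changed the sign of a difference that passed in neither setting and 0 reversed a call. No setting gave a higher member. The count of lower members was 0 with each of neqc, log2 median scaling, log2 quantile normalization and a test against 1.5-fold (treat), 2 with array weights (Bub1b and Kif2c) and 0 to 2 with an array left out (2, Cdca8 and Kif2c, without ScAtrxKO replicate 1). The members' median was -0.15 with log2 quantile normalization, -0.19 with median scaling, -0.035 with no detection filter and -0.10 to -0.05 with an array left out. Other mitosis genes were lower in 0 rows with log2 quantile normalization, median scaling and treat, 7 with array weights and 0 to 3 with an array left out (0 without WT replicate 1 and 1 without WT replicate 2). DNA replication genes were lower in 0, 1 and 0 rows with log2 quantile normalization, median scaling and treat, and in 1 to 4 with an array left out (1 without ScAtrxKO replicate 2 or 3 or WT replicate 1 or 2). Over all rows, 604, 595 and 25 passed both limits with these 3 settings and 144 to 194 with an array left out, against 169. By the adjusted p alone, 227, 253 and 1 of the 13026 rows were lower with these 3 settings, against 717. That count was 425 with neqc, 912 with array weights and 273 to 644 with an array left out (431 without ScAtrxKO replicate 1). The causes were not tested.

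The labels do not say that the replicate numbers pair the samples, and deviations of same-numbered arrays correlated at 0.003, 0.05 and 0.08 across rows, none above 0.1. ScAtrxKO replicates 2 and 3 correlated best with their own number and ScAtrxKO replicate 1 with WT replicate 2. With the replicate number as a block, 3 of 27 members (Aurka, Cdca8 and Kif2c) and 1 of 63 other mitosis genes were lower. By the same adjusted p, 661 of all 13026 rows were lower. Past both limits were 179 rows and 0 members.

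Kif2c kept its call in 9 of 17 settings, its fold change lying between -0.42 and -0.22. Low signal limits what can be said of 10 undetected members.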
